A study of Mus musculus with 4 samples.

Results

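The genes described here are 10 genes of the IL-6 cytokine family and of the signalling route that its receptors share, chosen by their symbols out of 22488 genes listed per library. They are 4 ligands (Il6, Il11, Lif and Clcf1), 4 receptor chains (Il6st, Il6ra, Osmr and Lifr), the transcription factor Stat3 and the feedback inhibitor Socs3. RNA was sequenced from vascular smooth muscle cells, which give arteries their tone, grown from C57BL/6 mice and used at passages 4 to 10. They were transfected for 48 hours either with scramble siRNA as the control (2 libraries) or with siRNA against circEsyt2, a circular RNA that carries the name of the gene Esyt2 (2 libraries). All 4 libraries therefore come from transfected cells of the same strain and passage range, and untransfected cells were not analysed here. The labels do not say whether the 2 libraries of a group were separate cultures, and the p-values therefore cover only the spread of these libraries, which can be technical.

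Cytokines of this family signal through gp130, the receptor chain encoded by Il6st. IL-6 and IL-11 first bind their own alpha chains (Il6ra and Il11ra1) and then engage a pair of gp130 chains, whereas LIF joins gp130 to the LIF receptor (Lifr) and oncostatin M joins gp130 to its own chain (Osmr). Receptor-bound JAK kinases then phosphorylate STAT3, which enters the nucleus and switches on target genes, among them Socs3, whose protein binds gp130 and shuts the signal down. Cultured smooth muscle cells are a known source of IL-6, and IL-11 is known as a cytokine of stromal cells.

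For the 3 ligand genes whose calls went in opposite directions, Il6 and Lif on one side and Il11 on the other, the 250 bases before the transcription start are shown. The sequences are from RefSeq (GRCm38.p6), 5′ to 3′ on the strand of the gene, and capitals mark matches to any of 5 searched motifs. The windows are chr5:30012864-30013113 (plus strand) for Il6, chr7:4778142-4778391 (minus strand) for the downstream of 2 start sites of Il11, and chr11:4257318-4257567 (plus strand) for Lif.
Il6: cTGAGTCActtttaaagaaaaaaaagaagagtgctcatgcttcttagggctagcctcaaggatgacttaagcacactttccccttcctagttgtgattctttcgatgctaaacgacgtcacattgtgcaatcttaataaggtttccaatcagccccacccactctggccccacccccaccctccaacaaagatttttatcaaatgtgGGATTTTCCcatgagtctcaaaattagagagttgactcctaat
Il11: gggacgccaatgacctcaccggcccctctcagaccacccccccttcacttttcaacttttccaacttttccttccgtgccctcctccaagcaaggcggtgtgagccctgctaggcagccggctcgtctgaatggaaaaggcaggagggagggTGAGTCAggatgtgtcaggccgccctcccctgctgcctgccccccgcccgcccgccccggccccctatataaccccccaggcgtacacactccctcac
Lif: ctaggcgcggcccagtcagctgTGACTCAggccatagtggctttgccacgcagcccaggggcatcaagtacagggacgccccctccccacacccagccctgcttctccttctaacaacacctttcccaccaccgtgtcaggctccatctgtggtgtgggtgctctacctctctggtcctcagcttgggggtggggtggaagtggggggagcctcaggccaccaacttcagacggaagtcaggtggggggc
For Socs3, the gene with the largest fall among the members, only the stretch around its 1 match is shown, at chr11:117969492-117969540 (minus strand).
Socs3: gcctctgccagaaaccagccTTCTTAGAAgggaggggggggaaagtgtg
The motifs, searched on both strands, were TTCNNNGAA (a STAT site), TGANTCA (AP-1), TGACGTCA (a cyclic AMP response element), GGANTTNCC (the core of an NF-kB site) and TGATGNAAT (a C/EBP-ATF composite site). No match of one motif overlapped that of another in these windows. Il6 held 1 AP-1 match starting 249 bases before the start and 1 NF-kB match starting 43 bases before it. Il11 held 1 AP-1 match at 98 bases, Lif 1 AP-1 match at 228 bases, and Socs3 1 STAT match at 154 bases before the start. The window of the upstream Il11 start site, chr7:4782858-4783107, is not shown and had no match to any of the 5 motifs. These starts are those of RefSeq and can differ from the GENCODE gene ends given below. The Il11 window shown and the Socs3 window lie inside the GENCODE spans of their genes. Of the 250 bases of the Socs3 window, 77 are exon bases in GENCODE M21. Of 32851 promoter windows of this length, 6.75% held the AP-1 letters, 7.02% the STAT letters, 1.55% the cyclic AMP letters, 3.15% the NF-kB letters and 0.816% the composite letters. The table held 11 windows for 9 of the 10 members, none for Clcf1, and 4 windows had a match. An AP-1 match therefore stood before genes of both directions, for Il11 at the downstream start site only. These are letters only, with no measurement of binding.

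Levels are in FPKM as deposited, a fragment number scaled by the length of the gene and by the total of the library. Whole read numbers were recovered from their digits, and the library totals were 2516428 and 4116791 reads with scramble siRNA against 3765056 and 3127224 with circEsyt2 siRNA. Genes with 2 reads (1499 to 1917 per library) outnumbered genes with 1 read (448 to 748), the pattern that counting both mates of a pair would give. The numbers below are therefore called reads and not fragments, and counting error may be larger than they imply. Of 10 smooth muscle markers all were above 0 in every library, and their summed FPKM was 2370 and 2450 with scramble siRNA against 1510 and 1420 with circEsyt2 siRNA. Of the 11 hepatocyte markers listed, the summed FPKM was 12.9 and 3.52 with scramble siRNA but 3250 and 101 with circEsyt2 siRNA. Both circEsyt2 siRNA sums are thus above both scramble sums, and circEsyt2 siRNA replicate 1 stands furthest apart. Of these 11 markers tested with limma 0 were called, with a median log2 fold change of 4.27. An unadjusted p under 0.05 was found for 9 of them, beside 3397 of all 11290 genes tested. The 10 macrophage and leukocyte markers summed to 12.7, 15.3, 41.2 and 9.75 FPKM in the 4 libraries, in the order scramble replicates 1 and 2 and circEsyt2 siRNA replicates 1 and 2. Their leukocyte-wide member Ptprc was at most 0.653 FPKM and the macrophage gene Itgam at most 0.193. The most abundant, Cd14, had 4.48 to 10.1 FPKM. Lyz2 had 1.21, 0.923, 21.4 and 0.972 FPKM in the same order. Cd68, named after its values were seen, had 0.632, 0.966, 3.59 and 1.53, and Csf1r 1.87, 3.48, 1.74 and 0.262. Adgre1 had 0, 0.15, 1.89 and 0.593 FPKM and Fcgr3 0, 0, 1.68 and 1.11, both named after their values were seen. Cd68, Adgre1 and Fcgr3 were thus above both scramble values in both circEsyt2 siRNA libraries, whereas Csf1r was below both. Adgre1 and Fcgr3 had a mean under 1 FPKM and were not tested. Of 4 macrophage and leukocyte markers tested with limma 0 were called. Endothelial markers summed to 18.2 to 27.6 FPKM, with Cldn5 at 0 throughout. Of 3 endothelial markers tested with limma 1 was called higher and 1 lower. The higher one was Kdr, at 1.23 and 1.26 FPKM with scramble siRNA against 4.32 and 4.00 with circEsyt2 siRNA. The lower one was Eng, at 23.4 and 17.2 against 9.58 and 9.48 FPKM. Fibroblast markers summed to 916 and 825 FPKM against 639 and 727, most of it the collagen genes Col1a1 and Col1a2 and Dcn. Of 8 of them tested with limma 3 were called lower (Pdgfra, Thy1 and Mfap5) and 0 higher, with a median log2 fold change of −1.20, and of 9 smooth muscle markers tested 7 were lower and 0 higher, with a median of −0.98, against 0.00 for all genes tested. Both lists were thus lower by median with circEsyt2 siRNA, where Il6, Lif, Il6st and Socs3 were called lower and Il11 and Osmr higher. Of the fibroblast markers tested 5 were not called, among them Dcn, at 184 and 190 against 205 and 192 FPKM. The part of these other cell types in the results was not tested.

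All 10 members had a mean of at least 1 FPKM and were tested. In limma with Benjamini-Hochberg adjustment over all 11290 genes tested, 4 members were lower with circEsyt2 siRNA (Il6, Lif, Il6st and Socs3), 2 were higher (Il11 and Osmr) and 4 did not pass the threshold of 0.05. Of all genes tested 12.7% were called, 7.26% lower and 5.47% higher. Groups did not overlap for 8 of the 10 members, which was so for 60.7% of all genes tested. When either scramble library was left out, limma called 0 members and 0 genes, with 6 members and 1959 or 2231 genes at an unadjusted p under 0.05. Every call given below was lost in those 2 fits and the loss is not repeated.

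**Figure D1:**
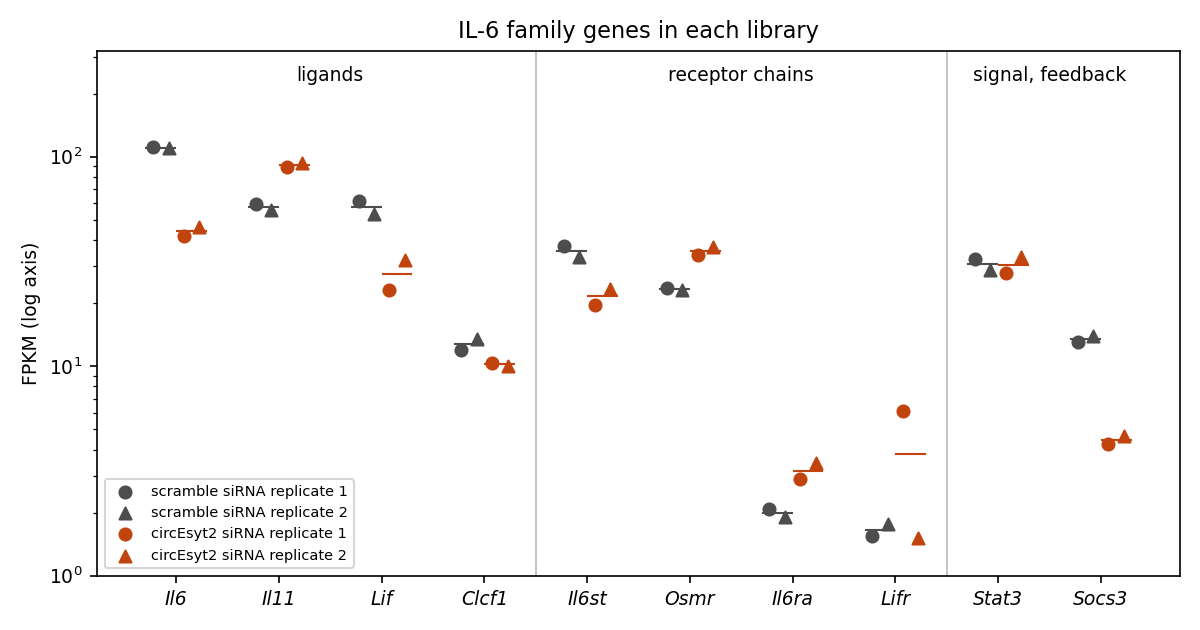
FPKM (vertical log axis) of each IL-6 family gene in the 4 libraries, grouped by role; grey marks are scramble siRNA, orange marks circEsyt2 siRNA, circles replicate 1, triangles replicate 2, and short lines the group means. Il6 lies near 110 FPKM with scramble siRNA and at or under 46.2 with circEsyt2 siRNA, Il11 moves the opposite way, and Lifr is high in circEsyt2 siRNA replicate 1 alone.

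Among the ligands, Il6 fell and Il11 rose, so that their order reversed. Il6, the cytokine after which the family is named (chromosome 5, 30013114 to 30019981, plus strand, GRCm38), had 111 and 110 FPKM with scramble siRNA against 41.8 and 46.2 with circEsyt2 siRNA, from 678, 1097, 382 and 351 reads. Both circEsyt2 siRNA values lie far below both scramble values, and the spread within each group is small beside the gap. The mean was 2.51-fold lower by FPKM, and the log2 fold change on log2(FPKM + 1) was −1.31 (SE 0.11, 95% interval −1.58 to −1.04, limma adjusted p = 0.00407). Among the 11290 tested genes Il6 stood at rank 367 by mean level with scramble siRNA and at rank 1097 with circEsyt2 siRNA. RNA of a whole culture was measured, so fewer cells making a transcript and less of it per cell cannot be told apart, here and below.

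Il11 (chromosome 7, 4772373 to 4782859, minus strand) had 59.4 and 55.9 FPKM with scramble siRNA against 88.8 and 93.7 with circEsyt2 siRNA, resting on 311, 479, 696 and 610 reads. The 2 groups do not overlap, and the replicates of each lie close together. Its mean was 1.58-fold higher, with a log2 fold change of 0.65 (SE 0.11, 95% interval 0.39 to 0.92, limma adjusted p = 0.0178). That call ended when circEsyt2 siRNA replicate 2 was left out and with eBayes without a trend. The ratio of Il6 to Il11 FPKM was 1.87 and 1.96 with scramble siRNA against 0.47 and 0.493 with circEsyt2 siRNA. This ratio's log2 value differed by −1.99 between the groups (two-sided exact permutation p = 0.333, the smallest that the 6 arrangements of 2 against 2 libraries can give).

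Lif, leukaemia inhibitory factor (chromosome 11, 4257557 to 4272514, plus strand), had 61.2 and 53.2 FPKM with scramble siRNA against 23.0 and 32.1 with circEsyt2 siRNA. Both circEsyt2 siRNA libraries are below both scramble libraries, replicate 1 more so than replicate 2. The mean was 2.08-fold lower and the log2 fold change −1.04 (SE 0.18, 95% interval −1.49 to −0.59, limma adjusted p = 0.0220). The call was lost with eBayes without a trend. With scramble siRNA, Lif and Il11 stood side by side, at 61.2 and 53.2 against 59.4 and 55.9 FPKM, levels that do not differ beyond their spread.

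Clcf1, cardiotrophin-like cytokine factor (chromosome 19, 4214238 to 4223490, plus strand), was the lowest of the 4 ligands. It had 12.0 and 13.5 FPKM with scramble siRNA against 10.4 and 9.99 with circEsyt2 siRNA, groups that lie close together without overlapping. Its log2 fold change of −0.29 (SE 0.15, 95% interval −0.65 to 0.07) did not pass the test (limma adjusted p = 0.242). Clcf1 shares 311 exon bases on the same strand with the annotated gene AC109138.7, and reads there could be split between them. Its length was solved from the values, so its 112, 206, 146 and 116 reads are minimum numbers.

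**Figure D2:**
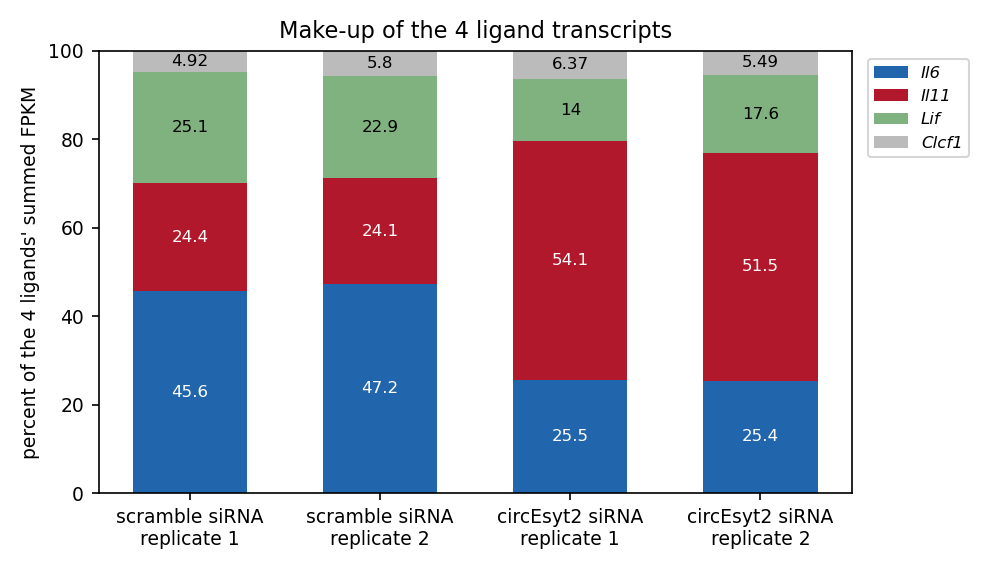
Percent of the 4 ligands' summed FPKM (vertical axis) taken by Il6, Il11, Lif and Clcf1 in each library, with 1 bar per library and 1 colour per gene. Il6 takes 45.6% and 47.2% with scramble siRNA against 25.5% and 25.4% with circEsyt2 siRNA, while Il11 goes from 24.4% and 24.1% to 54.1% and 51.5%.

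The summed level of the 4 ligands was 244 and 232 FPKM with scramble siRNA and 164 and 182 FPKM with circEsyt2 siRNA. Il6 made up 45.6% and 47.2% of that sum with scramble siRNA against 25.5% and 25.4% with circEsyt2 siRNA. Il11 made up 24.4% and 24.1% against 54.1% and 51.5%, and so went from about the share of Lif (25.1% and 22.9%) to the largest share. The share of Clcf1 was 4.92% to 6.37% in all 4 libraries, with overlapping groups. These shares were derived from the same values as the fold changes and are a description.

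Of the receptor chains, the shared chain gp130 fell and the oncostatin M chain rose. Il6st (chromosome 13, 112464070 to 112510086, plus strand) had 37.5 and 33.1 FPKM with scramble siRNA against 19.6 and 23.4 with circEsyt2 siRNA, from 1047, 1514, 821 and 812 reads. Every circEsyt2 siRNA value was below every scramble value, with a mean 1.64-fold lower. The log2 fold change was −0.69 (SE 0.15, 95% interval −1.05 to −0.33, limma adjusted p = 0.0354). This call was near the threshold and was lost without either circEsyt2 siRNA replicate, with eBayes without a trend, and in the fit with the replicate number as a block (adjusted p = 0.0637), while the fold change stayed between −0.81 and −0.57 over the 13 alternative fits.

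Osmr, the chain that pairs with gp130 for oncostatin M (chromosome 15, 6813577 to 6874969, minus strand), had 23.7 and 23.2 FPKM with scramble siRNA against 34.0 and 37.0 with circEsyt2 siRNA. The scramble values are almost equal and both circEsyt2 siRNA values are above them. The mean was 1.51-fold higher, with a log2 fold change of 0.58 (SE 0.12, 95% interval 0.28 to 0.88, limma adjusted p = 0.0352). Its call was lost in the same fits as that of Il6st (adjusted p = 0.0700 with the replicate number as a block), at fold changes of 0.52 to 0.64. Per kilobase, Il6st was above Osmr in both scramble libraries and below it in both circEsyt2 siRNA libraries. The ratio of Il6st to Osmr FPKM, chosen after its values were seen, was 1.58 and 1.43 with scramble siRNA against 0.577 and 0.633 with circEsyt2 siRNA. The summed level of the 4 receptor chains was 64.8 and 60.0 FPKM against 62.7 and 65.3, and these overlap.

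Il6ra, the alpha chain that binds IL-6 (chromosome 3, 89864059 to 89913196, minus strand), was low in all libraries. It had 2.07 and 1.91 FPKM with scramble siRNA against 2.89 and 3.44 with circEsyt2 siRNA, from 45, 68, 94 and 93 reads. Both circEsyt2 siRNA values are above both scramble values, but the log2 fold change of 0.48 (SE 0.24, 95% interval −0.11 to 1.07) did not pass the test (limma adjusted p = 0.241). Il6ra shares 242 exon bases with the antisense gene Gm42809, whose reads cannot be told apart without strand.

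Lifr, the LIF receptor chain (chromosome 15, 7090614 to 7197489, plus strand), lies 215.6 kb from Osmr with no protein-coding gene annotated between them. It had 1.55 and 1.76 FPKM with scramble siRNA, and 6.11 in replicate 1 and 1.51 in replicate 2 of circEsyt2 siRNA, from 42, 78, 248 and 51 reads. Only circEsyt2 siRNA replicate 1 is high, and the groups overlap. The log2 fold change was 0.67 (SE 0.50, 95% interval −0.56 to 1.91, limma adjusted p = 0.410) and −0.08 without that library. Liver is a known site of Lifr and Il6ra expression, and circEsyt2 siRNA replicate 1 is the library in which hepatocyte markers summed to 3250 FPKM, led by albumin (Alb) at 2080 FPKM. Il6ra was not highest in that library. The part of hepatocyte RNA in either value was not tested.

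**Figure D3:**
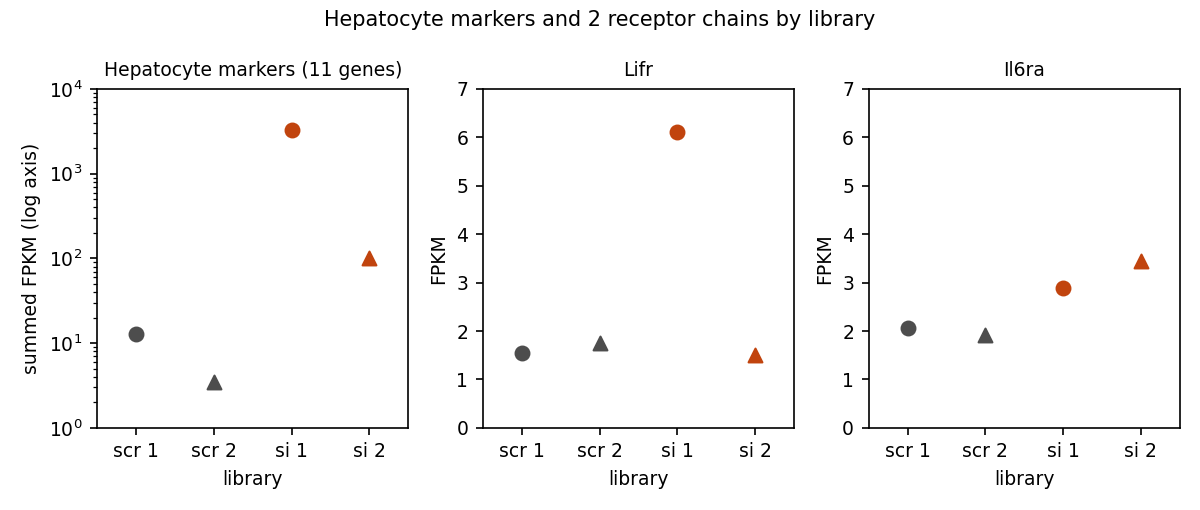
Summed FPKM of the 11 hepatocyte markers (left, log axis) and FPKM of Lifr (middle) and Il6ra (right) in scramble siRNA replicates 1 and 2 (scr) and circEsyt2 siRNA replicates 1 and 2 (si). Both the markers (3250 FPKM) and Lifr (6.11 FPKM) are highest in circEsyt2 siRNA replicate 1, whereas Il6ra is highest in replicate 2 (3.44 FPKM).

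Below the receptors, the transcript of the feedback inhibitor fell while no change of Stat3 itself was detected. Stat3 (chromosome 11, 100885098 to 100939540, minus strand) had 32.5 and 28.7 FPKM with scramble siRNA against 27.7 and 33.3 with circEsyt2 siRNA, and the 2 ranges overlap. The log2 fold change was −0.01 (SE 0.15, limma adjusted p = 0.977), and its 95% interval of −0.37 to 0.35 leaves room for changes of that size. Transcript level says nothing about STAT3 phosphorylation, which was not measured. Stat3 shares 72 exon bases with Stat5a on the opposite strand.

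Socs3 (chromosome 11, 117966079 to 117970047, minus strand) had 13.1 and 13.9 FPKM with scramble siRNA against 4.23 and 4.65 with circEsyt2 siRNA. The replicates of each group are close to each other and the groups are far apart. Its mean was 3.04-fold lower, the largest change among the members, with a log2 fold change of −1.42 (SE 0.16, 95% interval −1.80 to −1.03, limma adjusted p = 0.00627). The values rest on 95, 166, 46 and 42 reads, fewer than for Il6. By size of fall it ranked 190 of the 820 genes called lower, and Il6 ranked 233. In level it went from rank 3627 to rank 7257 of the tested genes.

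**Figure D4:**
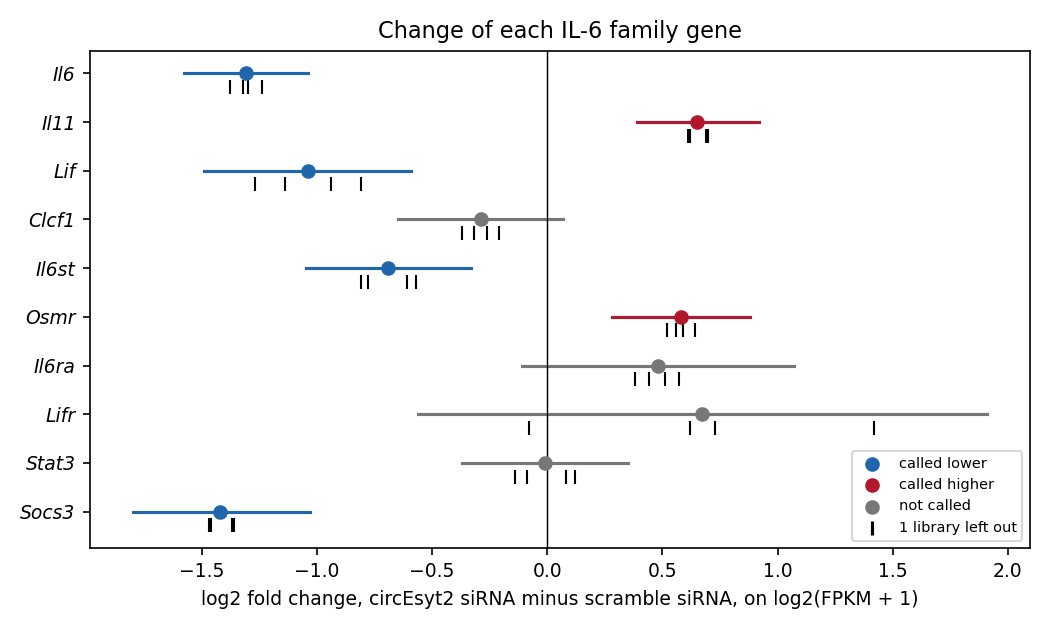
Log2 fold change on log2(FPKM + 1) (horizontal axis, circEsyt2 siRNA minus scramble siRNA) with its 95% interval for each IL-6 family gene; blue was called lower, red higher, grey not called, and black ticks are the values with 1 library left out. Il6, Lif, Il6st and Socs3 lie left of 0 and Il11 and Osmr right of it in every such fit, while the ticks of Stat3 and Lifr lie on both sides.

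The other ligands and receptors of the family were mostly low or listed at 0. Of 13 such genes 3 reached a mean of 1 FPKM, and limma called 0 of them, beside 12.7% of all genes tested. An unadjusted p under 0.05 was found for 1 of the 3, beside 3397 of all 11290 genes tested. Limma's voom on the recovered reads called 1 of the 3, beside 2066 of all 11290. Il11ra1, the alpha chain for IL-11, had 6.58 and 8.26 FPKM with scramble siRNA against 4.10 and 3.43 with circEsyt2 siRNA (log2 fold change −0.82, limma adjusted p = 0.0506). Its groups do not overlap, and the adjusted p missed the threshold narrowly. A near-identical copy, Il11ra2, makes its read assignment uncertain. Ctf1, the cardiotrophin gene, had 0.871 to 2.66 FPKM. Osm, the ligand of Osmr, was listed at 0 in all 4 libraries, where 3 reads would give 0.321 to 0.525 FPKM. Genes with fewer reads were also listed, so this is a guide to depth and not a detection limit. A low level of Osm may have been missed.

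Of 8 tested JAK kinase and STAT genes 1 was lower, 0 were higher and 7 were not called. The list median was −0.45 against 0.00 for all genes tested, of which 12.7% were called. Jak2, a kinase bound to gp130, had 24.5 and 22.3 against 14.8 and 17.9 FPKM, without overlap but not called (limma adjusted p = 0.0844). Stat2, a transcription factor of interferon signalling, had 26.6 and 24.5 against 16.6 and 21.6 FPKM (limma adjusted p = 0.164).

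Among 14 tested SOCS, PIAS and phosphatase genes, the other brakes of the route, 1 was lower, 1 higher and 12 not called. The median was 0.06, and 12.7% of all genes tested were called. Pias3, whose protein inhibits STAT3, fell from 10.4 and 11.7 FPKM to 3.12 and 4.00, a log2 change of −1.41 (limma adjusted p = 0.0102). Pias4, a SUMO ligase of the same family, rose from 9.25 and 9.60 FPKM to 14.9 and 17.9 (log2 fold change 0.73, limma adjusted p = 0.0357), a call lost without circEsyt2 siRNA replicate 2 and in the fit with the replicate block. Socs4 had 10.4 and 9.15 FPKM against 13.9 and 15.7 (limma adjusted p = 0.0697). Socs1, the relative of Socs3 best known as a brake on interferon signalling, had 2.87 and 3.68 against 2.56 and 1.54 FPKM (limma adjusted p = 0.286), named here after its values were seen.

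Of 20 genes that link gp130 to RAS and PI3K, 3 were higher, 1 lower and 16 not called, beside 12.7% of all genes tested called. The list median was 0.19. Map2k1, the MAP kinase kinase MEK1, rose from 65.0 and 73.4 to 104 and 116 FPKM (log2 fold change 0.67). Pik3r1, a regulatory subunit of PI3K, fell from 12.7 and 9.81 to 5.80 and 5.68 FPKM (log2 fold change −0.85, limma adjusted p = 0.0357), and Pik3ca, its catalytic partner, rose, at 11.7 and 12.2 against 19.2 and 17.7 FPKM (named after its values were seen). Without circEsyt2 siRNA replicate 2 all 4 calls of this list were lost, and Pik3r1 and Pik3ca also without replicate 1 and in the fit with the replicate block. Ptpn11, the phosphatase SHP2 recruited to gp130 and counted with the brakes, had 31.7 and 23.8 against 26.0 and 24.2 FPKM, named here after its values were seen.

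Of 6 genes for proteases and partners that shed receptors from the cell surface, 1 was higher and 0 were lower. The median was −0.04, and the share called among all genes tested was 12.7%. Rhbdf2, which guides the sheddase ADAM17 to the surface, rose from 4.88 and 4.45 to 8.78 and 8.82 FPKM (log2 fold change 0.79, limma adjusted p = 0.0328), a call that ended when either circEsyt2 siRNA library was left out and in the fit with the replicate block. Timp3, an inhibitor of ADAM17, had 34.4 and 34.7 against 19.6 and 26.2 FPKM (limma adjusted p = 0.0732), and Rhbdf1 had 4.97 and 3.76 against 2.74 and 2.12 FPKM (limma adjusted p = 0.138).

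**Figure D5:**
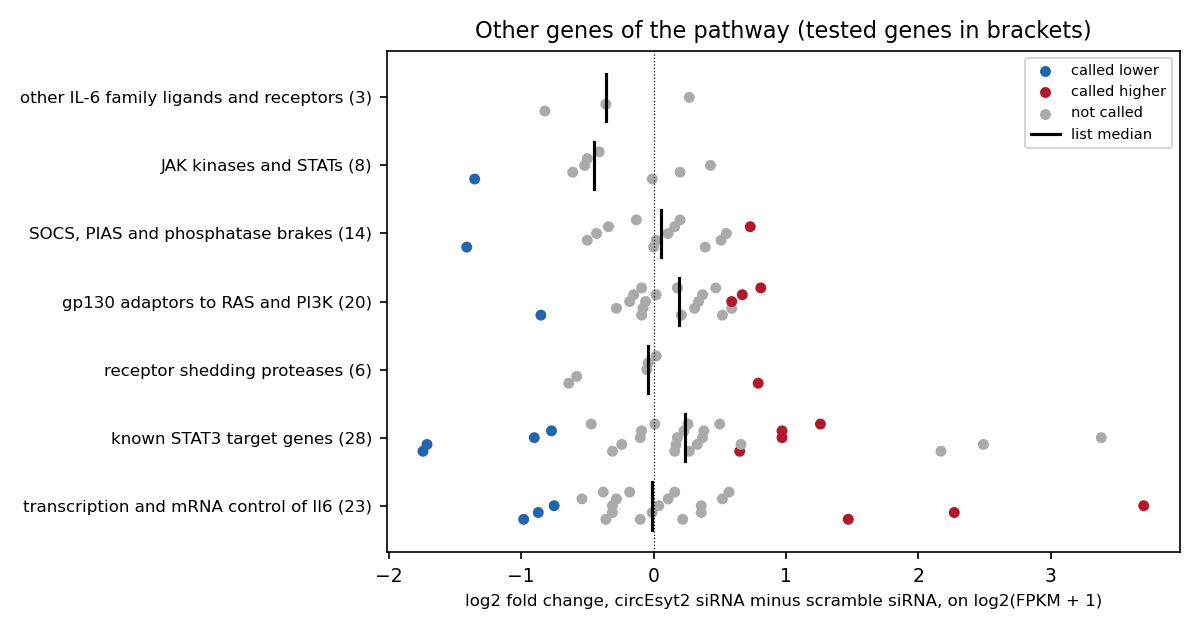
Log2 fold change on log2(FPKM + 1) (horizontal axis, circEsyt2 siRNA minus scramble siRNA) of each tested gene in the 7 lists of other pathway genes, 1 point per gene, with the number tested in brackets; blue was called lower, red higher, grey not called, and the black bar is the list median. The medians lie between −0.45 and 0.24, and genes called in both directions appear in 4 lists, those of the brakes, the adaptors, the STAT3 targets and the control of Il6.

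Known STAT3 target genes did not follow 1 direction. Of 28 tested, 4 were higher, 4 lower and 20 not called, with a median of 0.24. Among all genes tested 5.47% were called higher and 7.26% lower. Ccnd1, the cyclin D1 gene, fell from 84.6 and 76.4 to 23.6 and 23.2 FPKM (log2 fold change −1.74, limma adjusted p = 0.00281), and the adhesion molecule gene Icam1 from 12.2 and 10.6 to 2.80 and 2.79 FPKM (log2 fold change −1.71, limma adjusted p = 0.00508). Tnfrsf12a, the receptor of the cytokine TWEAK, rose from 62.5 and 68.3 to 171 and 145 FPKM (log2 fold change 1.26, limma adjusted p = 0.00501). The other called members, named after their values were seen, were Myc, Pim1 and Cebpb, which rose by 0.97, 0.97 and 0.65, and the chemokine gene Ccl2 and the acute-phase gene Saa3, which fell by 0.90 and 0.77. Without circEsyt2 siRNA replicate 2 the calls of Myc, Pim1, Cebpb and Saa3 were lost, and that of Pim1 also without replicate 1. The acute-phase genes of this list differed in circEsyt2 siRNA replicate 1. Hp had 130 FPKM there and 3.96 to 5.97 in the other libraries, Fgb 75.8 against 0.417 to 3.19, and Lrg1 19.2 against 0 in the other 3. Lbp, at 2.36 FPKM there and 2.52 to 2.66 elsewhere, was not high in that library, and Saa3 had 399 and 416 FPKM with scramble siRNA against 269 and 211. The summed hepatocyte markers given above are highest in circEsyt2 siRNA replicate 1 too, with replicate 2 above both scramble libraries. The part of hepatocyte RNA in these values was not tested.

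Genes that control Il6 transcription or the stability of its mRNA also moved both ways. Among 23 tested 3 were higher, 3 lower and 17 not called, with a median of −0.01. The shares among all genes tested were 5.47% higher and 7.26% lower. The 3 that rose were the stress-response transcription factor genes Ddit3, Atf4 and Atf3, with log2 fold changes of 2.27, 1.47 and 3.70 and limma adjusted p of 0.00256, 0.00281 and 0.00351. The 3 that fell, named after their values were seen, were Zfp36l2, whose protein destabilises mRNAs with AU-rich ends, Zc3h12a, which encodes the nuclease Regnase-1 that cuts Il6 mRNA, and Nfkbia, the inhibitor of NF-kB. Zc3h12a had 46.3 and 37.6 FPKM with scramble siRNA against 21.3 and 23.6 with circEsyt2 siRNA (log2 fold change −0.87, limma adjusted p = 0.0208). Nfkbia fell from 134 and 117 to 86.6 and 63.8 FPKM. Without circEsyt2 siRNA replicate 2 these 3 lower calls were lost, and without replicate 1 that of Zc3h12a. The NF-kB subunit gene Rela had 40.8 and 32.5 against 31.9 and 48.3 FPKM, overlapping groups, and was also named after its values were seen.

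Among the 4619 other tested genes with a mean of at least 10 FPKM, those nearest to Il6 in pattern were Nek9, Plpp3 and Pdgfra. Likeness was the Euclidean distance of log2(FPKM + 1) values, each gene centred on its own mean over the 4 libraries. The distances were 0.052, 0.059 and 0.059, and 79 genes lay within 0.3 of Il6. Plpp3, a lipid phosphatase gene, had 166 and 173 FPKM with scramble siRNA against 66.2 and 72.3 with circEsyt2 siRNA. Pdgfra, the PDGF receptor alpha gene, had 20.5 and 19.4 against 7.0 and 7.56 FPKM, and the kinase gene Nek9 20.2 and 19.1 against 6.76 and 7.66 FPKM. Nearest to Il11 were Cdk6, Msn and Atp6v1h at distances of 0.029, 0.045 and 0.052, with 518 genes within 0.3. Msn, which encodes the membrane linker moesin, had 232 and 227 FPKM with scramble siRNA against 347 and 365 with circEsyt2 siRNA. With 4 libraries in 2 groups, many genes share such a pattern, and the distance describes these libraries only.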

How the data were processed

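RNA was measured in 4 libraries, 2 per siRNA. The authors deposited FPKM per gene; Trimmomatic, HISAT2 and featureCounts, with GRCm38 and mm10, are named in the submitters' processing notes, with versions, strand setting and annotation not given in the sources used here. Because each FPKM is scaled to the library total, a few very abundant genes can lower the rest. The protocols in the labels describe library making from double-stranded cDNA, with no strand marking described. Each library total was solved from the FPKM digits as the smallest whole number that, with GENCODE M21 exon-union lengths, made 96.5% to 96.7% of values whole. The other genes got the smallest length that made all 4 values whole, within 0.0001. Neither read pairs nor unique molecules are separated in these reads.

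The linear models were fitted with limma 3.58.1 under R 4.3.3, with an eBayes trend, to log2(FPKM + 1) of the 11290 genes with a mean of at least 1 FPKM. Tests were two-sided, p-values were Benjamini-Hochberg adjusted over all of these genes, and the threshold was 0.05. Log2 fold changes on this scale understate the change of low genes. Alternatives were pseudocounts of 0.1 and 0.5, no filter or a minimum of 5 FPKM, median ratio scaling, quantile normalization, eBayes without a trend, a replicate block, limma's voom on the recovered reads, and leaving out each library. Only the main limma fit and voom were also run on simulated reads, and the outcome is not reported here.

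The text names all 10 members, the 3 genes with the smallest p of each pathway list and the 3 nearest patterns to Il6 and Il11; other genes are marked as named after their values were seen, and some genes that the rule selects are not reported here. The members, the lists and the tests were chosen with earlier results of these data known, and Il6 and Il11 had been seen to move. Positions are 1-based on GRCm38 from GENCODE M21 (22391 of 22488 symbols found).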

Additional observations from a re-analysis of the deposited data

How the results depend on the processing

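The 6 called members had the same direction in all 13 alternative fits. Counts of members called higher and lower were 2 and 4, and did not differ with either pseudocount, either filter, median ratio scaling, quantile normalization or voom on the recovered reads. With eBayes without a trend they were 0 and 2 (Il6 and Socs3), and all genes called were 203 higher and 374 lower, against 617 and 820, with 4 pathway list genes higher (Atf3, Atf4, Ddit3 and Tnfrsf12a) and 5 lower (among them Pias3, Ccnd1, Icam1 and Zfp36l2), against 12 and 10. No filter on low values also ended the calls of Cebpb, Nfkbia, Pias4, Pik3ca, Pik3r1 and Rhbdf2, and quantile normalization that of Cebpb. Titles give both groups replicate numbers 1 and 2, but no label says that a number marks a shared culture or day, and the correlation of the same-numbered libraries' deviations was −0.051. With the replicate number as a block, 1 member was higher (Il11) and 3 were lower, with 404 genes higher and 604 lower. Il6st and Osmr lost their calls under that block. Leaving out 1 library at a time gave 0 to 1 members higher and 0 to 3 lower, 0 to 405 genes higher and 0 to 622 lower, and 0 to 9 pathway list genes higher and 0 to 8 lower. The counts of 0 came from leaving out either scramble library, where a single scramble library carries its group and limma's spread rests on the other group, and, for members higher, also from leaving out circEsyt2 siRNA replicate 2. The Il6 to Il11 log2 difference was −2.03 to −1.96 in these fits. With 1 library left out, the log2 fold change of Stat3 ranged from −0.14 to 0.12 and was above 0 without scramble replicate 1 (0.08) or circEsyt2 siRNA replicate 1 (0.12). That of Lifr ranged from −0.08 (circEsyt2 siRNA replicate 1 left out) to 1.42. With voom 900 genes were higher and 1166 lower. A minimum of 5 FPKM leaves Il6ra and Lifr untested. Values of Il6ra, Lifr and Socs3 rest on 42 to 248 reads per library. The cause of these differences was not tested.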
